A study of Mus musculus with 7 samples.

Results

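A set of 37 interferon response genes was followed in sorted EML cells, a mouse blood progenitor line. The genes were taken by symbol from the deposited expression table, all 37 had 1 row each, and the table held 20142 usable rows in all. Of the 37, 20 reached at least 1 FPKM (sequenced fragments scaled to transcript length and library size) in at least 3 libraries, and the other 17 did not. Those 20 entered the tests. EML cells are a multipotent, growth factor-dependent line that yields erythroid, myeloid and lymphoid cells. RNA was sequenced from Annexin V-negative cells, a gate that leaves out dying cells, after a sort on the surface sialomucin CD34. It gave 4 libraries of CD34-negative and 3 of CD34-positive cells. The labels give the strain C57BL/6 for both groups and name no treatment, no interferon and no added allele. For the negative libraries the genotype field says CD43 while the title says CD34, and groups follow the title. The labels also name bone marrow as the tissue and a postnatal age, while the source is named as the Erythroid-Myeloid-Lymphoid cells, so the line was taken as the source. All libraries come from 1 cell line, and nothing in the labels says that replicates were separate cultures, so a p-value here reflects library-to-library spread, which may be technical.

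Interferons are secreted proteins that warn cells of infection. Type I interferons bind the Ifnar1 and Ifnar2 chains and type II interferon binds Ifngr1 and Ifngr2; Janus kinases then activate transcription factors. A complex that holds Stat2 and Irf9 binds a promoter element called the interferon-stimulated response element (ISRE), and type II interferon acts through the gamma-activated site (GAS). The induced genes include sensors of viral nucleic acid, enzymes that block viral RNA, membrane proteins that restrict virus entry and GTPases that attack intracellular pathogens. Stem and progenitor cells are known to hold some of these genes at a standing level without infection, among them members of the Ifitm family.

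The sort was visible in Cd34, which stood at 147, 256 and 153 FPKM in CD34-positive replicates 1, 2 and 3 against 91.8, 19.3, 2.67 and 6.02 FPKM in replicates 1 to 4 of the negative group. The 2 groups did not overlap, and CD34-negative replicate 1 held far more Cd34 than the other negative libraries. The sample descriptions carry a number for each library: number 3 for replicate 1 of both groups, number 2 for replicate 2 of both groups, and number 4 for CD34-positive replicate 3 and CD34-negative replicates 3 and 4 (the last written 4a). Number 4 libraries stood apart. Ribosomal protein genes held 2.25% to 4.15% of their summed FPKM, against 27.7% to 37.1% in the other 4. All 8 fixed progenitor markers, among them Kit, Tal1 and Runx1, passed the minimum of 1 FPKM. The number of fragments behind a value is unknown.

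Promoter sequences of 7 members that carry the elements named above are shown here. These members range in level from Ifitm2, at up to 981 FPKM, to Ifit1, at no more than 0.122 FPKM. Ifitm1, the member with the highest value, held no match within 250 bases and is not shown. Each sequence is the stretch of 140 bases that ends just before the annotated start. The sequences are from RefSeq on build GRCm38.p6, written 5′ to 3′ on the gene's strand. Capitals mark matches to the ISRE core, searched as GAAA, any 2 bases and GAAA again (TTTC, any 2 bases and TTTC on the other strand), or to the GAS core, searched as TTCNNNGAA. Matches may overlap, and in Bst2 the GAS core and the first ISRE core share bases.
Irf1 (chr11:53769874-53770013, plus strand): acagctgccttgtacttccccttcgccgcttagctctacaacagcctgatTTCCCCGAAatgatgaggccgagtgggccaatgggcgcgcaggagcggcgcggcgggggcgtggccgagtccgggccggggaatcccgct
Igtp (chr11:58199416-58199555, plus strand): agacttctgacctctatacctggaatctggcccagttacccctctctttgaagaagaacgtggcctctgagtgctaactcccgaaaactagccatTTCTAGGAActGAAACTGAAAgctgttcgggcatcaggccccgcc
Irgm1 (chr11:48871421-48871560, minus strand): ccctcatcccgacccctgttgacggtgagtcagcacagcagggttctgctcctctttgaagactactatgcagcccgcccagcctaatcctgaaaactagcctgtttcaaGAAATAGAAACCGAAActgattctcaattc
Bst2 (chr8:71537473-71537612, minus strand): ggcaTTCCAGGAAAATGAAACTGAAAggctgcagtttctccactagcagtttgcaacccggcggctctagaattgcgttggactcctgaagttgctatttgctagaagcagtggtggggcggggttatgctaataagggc
Ifitm2 (chr7:140955962-140956101, minus strand): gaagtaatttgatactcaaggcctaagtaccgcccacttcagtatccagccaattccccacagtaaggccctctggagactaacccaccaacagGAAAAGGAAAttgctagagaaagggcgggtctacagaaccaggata
Isg15 (chr4:156200819-156200958, minus strand): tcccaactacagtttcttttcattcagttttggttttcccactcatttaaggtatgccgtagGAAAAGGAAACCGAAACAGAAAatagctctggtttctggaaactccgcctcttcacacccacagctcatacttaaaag
Ifit1 (chr19:34640749-34640888, plus strand): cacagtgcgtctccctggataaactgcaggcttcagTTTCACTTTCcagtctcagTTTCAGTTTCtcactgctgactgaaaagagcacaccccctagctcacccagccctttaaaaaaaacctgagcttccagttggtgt

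Irf1 holds a GAS core at position -90 from the start, and Igtp holds a GAS core at -45 beside an ISRE core at -34. The 2 overlapping ISRE cores of Irgm1 start at -30 and -24. Isg15 holds 3 overlapping ISRE cores from -78 to -66 and Ifit1 holds 2, at -104 and -85. Among the 28 members matched to RefSeq promoters, 12 (42.9%) held an ISRE core within 250 bases before a start, against 936 (3.46%) of all 27025 genes with an entry and 3.04% of the tested genes with one. GAS cores were found in 6 members (21.4%) against 8.13% of all genes. Of the 18 matched members that passed the minimum level, 5 held an ISRE core: Stat2, Bst2, Ifitm2, Igtp and Irgm1. Of the 10 matched members below it, 7 did: Isg15, Ifit1, Ifit3, Rsad2, Oas1a, Gbp2 and Gbp3. These 2 shares were not tested against each other. A match is a string of letters in a window, and binding was not measured. Of the 18 members with both a level and a promoter, 7 lie on chromosome 11 (Irf1, Igtp, Irgm1, Ifi47, Xaf1, Ifi35 and Trim25). The share of all tested genes on that chromosome is not given here, so nothing is read into this count.

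**Figure D1:**
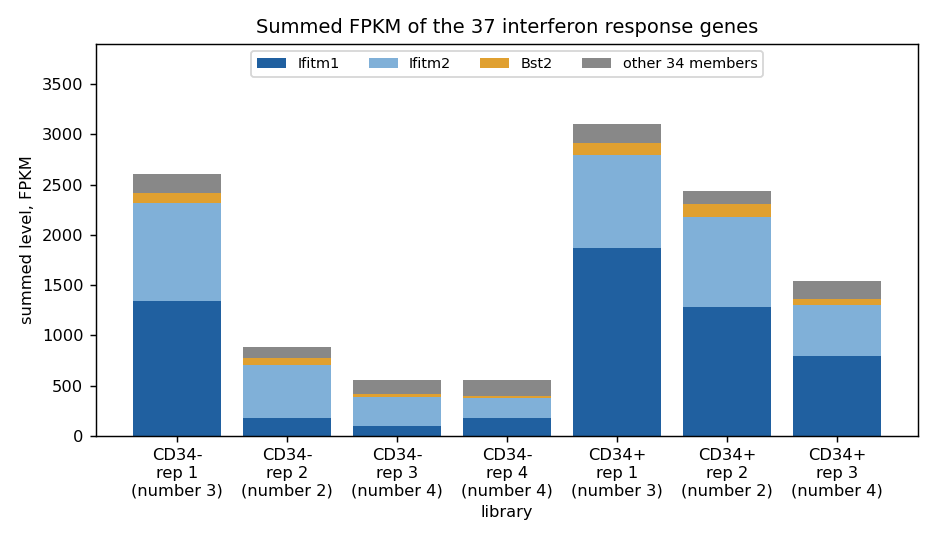
Summed FPKM of the 37 interferon response genes in each of the 7 libraries (vertical axis, FPKM), split into Ifitm1, Ifitm2, Bst2 and the other 34 members. Ifitm1 and Ifitm2 held 67.6% to 90.1% of the sum, which ran from 553 FPKM in CD34-negative replicate 3 to 3101 FPKM in CD34-positive replicate 1.

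The set was dominated by Ifitm1 and Ifitm2, which encode small membrane proteins that restrict virus entry. Together they made up between 67.6% and 90.1% of the summed FPKM of the set. Below them, Bst2, which tethers budding virus to the cell surface, lay between 24.2 and 120 FPKM. All other members stayed under 44 FPKM in every library. Levels are per length of transcript and so can be set side by side between genes.

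Much of the classical antiviral response was near or at 0. Zbp1, a sensor of Z-form nucleic acid, Ifit3, a cap-binding family member, and the GTPases Gbp2 and Iigp1 were listed at 0 in all 7 libraries. Mx1 and Mx2, genes of the dynamin-like GTPase family, were listed above 0 in CD34-positive replicate 3 alone, at 0.0207 and 0.0233 FPKM, as was Gbp3 at 0.0212 FPKM. Parp14, an ADP-ribosyltransferase, reached 0.0164 FPKM in CD34-positive replicate 2 and was listed at 0 elsewhere. The highest values of Oas1a, a double-stranded RNA-activated synthetase, Ifit1 and Ifit2 were 0.0764, 0.122 and 0.348 FPKM. Rsad2 (viperin) and Rtp4, both antiviral effectors, peaked at 0.375 and 0.374 FPKM. The RNA sensor Ifih1 peaked at 0.405 FPKM, Oasl2 at 0.581 FPKM and the ubiquitin-like modifier Isg15 at 0.844 FPKM. Dhx58, an RNA helicase that tunes the sensors, was the only one of the 17 to reach 1 FPKM anywhere, at 2.34 and 1.80 FPKM in CD34-positive replicates 1 and 3, against 0.403 to 0.939 FPKM in CD34-negative cells. No fold is given for these 17 members, since most lie where a listed 0 may be a failed estimate.

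Members of every role were set against CD34 status, and most were higher in CD34-positive cells. Of the higher ones, only Irf1 and Igtp had groups that did not overlap, as in 2.67% of all tested genes. Ifitm1 was also among the higher ones, and Ifngr1 and Ifi47 were among the lower. After adjustment over the 9259 tested genes none was called by limma, 0.00% in each direction, members included. The smallest adjusted p among the members was 0.647. At an unadjusted p under 0.05, 5 members were higher in CD34-positive cells (Irf1, Igtp, Ddx58, Ifitm1 and Ifitm3), where 3.38% of all tested genes were, and 1 was lower (Ifngr1), where 2.27% were. With the description number as a block, the same threshold took 12 members as higher, against 12.8% of all genes, and 2 as lower, against 9.14%, and again no gene passed after adjustment (smallest adjusted p 0.0767 over all genes and 0.0931 over the members). Of the members higher in both fits, Ddx58, Igtp and Ifitm3 reached 1 FPKM in all 3 positive libraries but in fewer than 3 negative ones. Their place among the higher members is thus not independent of the minimum level. The SE and adjusted p given below for CD34 differences of single members come from the fit without the block unless stated. In that fit the 20 members' median difference was 0.57 on the log2(FPKM + 1) scale, and that of all tested genes was 0.09. The difference was above 0 for 17 of the 20, against 62.1% of all tested genes. With quantile normalization or median-ratio scaling it was above 0 for 16 of the 20, Trim25 having turned, against 48.6% and 48.4% of all genes.

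Within libraries of equal number, 12 of the 20 members were higher in the CD34-positive library in all 4 comparisons (numbers 2, 3, 4 and 4a), against 21.4% of all tested genes. They were Irf1, Irf7, Ddx58, Eif2ak2, Adar, Bst2, Ifitm1, Ifitm3, Ifi35, Igtp, Irgm1 and Parp9. Ifngr1 and Ifi47 were lower in all 4, against 18.9% of all genes. The comparisons for 4 and 4a share their CD34-positive library. The number 3 difference was the smallest of the 4 in size for 17 of the 20 members, against 45.6% of all tested genes. Number 3 is the pair whose negative library held 91.8 FPKM of Cd34.

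**Figure D2:**
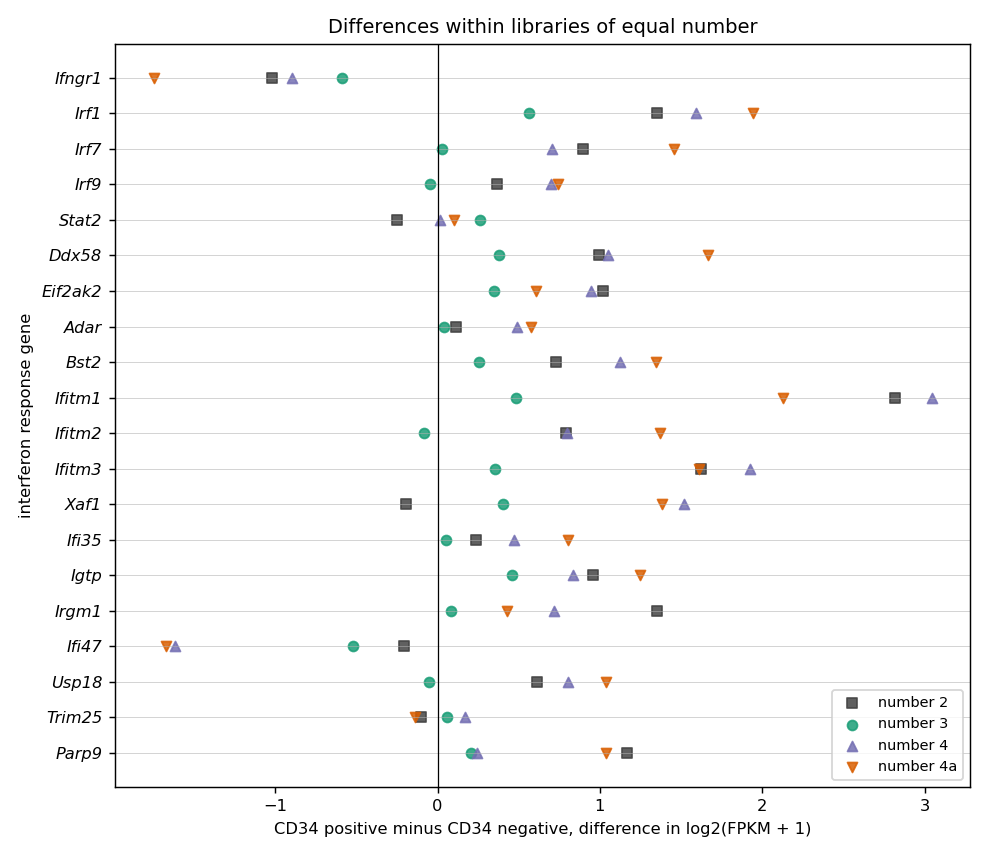
Difference between the CD34-positive and the CD34-negative library of equal number (horizontal axis, log2(FPKM + 1) scale) for the 20 tested members, 1 symbol for each of numbers 2, 3, 4 and 4a, the last using CD34-negative replicate 4. Ifngr1 and Ifi47 lie left of 0 in all 4 comparisons, and the number 3 symbols lie nearest to 0 for 17 members.

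Of the 4 transcription factors in the set, Irf1 alone had groups that did not overlap. Irf1, which drives many interferon-induced and antigen-presentation genes, stood at 13.8, 10.0 and 14.9 FPKM in CD34-positive replicates 1 to 3 against 9.03, 3.30, 4.27 and 3.13 FPKM in replicates 1 to 4 of the negative group. Every positive library lay above every negative one, which held for 2 of the 20 members and for 2.67% of all tested genes. The means were 12.9 ± 2.57 FPKM (SD, n = 3) and 4.93 ± 2.78 FPKM (SD, n = 4), a log2 difference of 1.31 (SE 0.37; adjusted p = 0.647 in limma).

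Irf7, the amplifier of type I interferon production, was at 5.71, 3.30 and 5.94 FPKM in CD34-positive and 5.59, 1.31, 3.25 and 1.52 FPKM in CD34-negative libraries. The groups overlapped through CD34-negative replicate 1, and the log2 difference of 0.71 (SE 0.42) was 0.03 within number 3 and up to 1.46 within number 4a. Irf9, the DNA-binding partner of Stat2, averaged 15.4 ± 3.41 FPKM (SD, n = 3) with CD34 and 11.7 ± 4.50 FPKM (SD, n = 4) without it, and its highest value, 18.4 FPKM, was in CD34-negative replicate 1. Stat2 differed by less than its spread, at 7.57 ± 2.35 FPKM (SD, n = 3) and 7.84 ± 1.82 FPKM (SD, n = 4), and the sign of its difference turned under 6 alternative settings.

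The only receptor chain in the set ran the other way. Ifngr1, the ligand-binding chain of the type II interferon receptor, stood at 14.9, 12.3 and 12.4 FPKM in CD34-positive and 23.0, 26.0, 23.9 and 43.9 FPKM in CD34-negative libraries. The groups did not overlap, as in 3.01% of all tested genes on the lower side. The log2 difference was -1.04 (SE 0.32; adjusted p = 0.647 in limma), and it was -1.02, -0.59, -0.90 and -1.75 within numbers 2, 3, 4 and 4a.

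Among the sensors, Ddx58, the RIG-I helicase that detects viral RNA ends, was the one to pass the minimum. It stood at 2.51, 1.35 and 3.59 FPKM in CD34-positive and 1.70, 0.180, 1.22 and 0.448 FPKM in CD34-negative libraries, a log2 difference of 0.91 (SE 0.37). Of the negative libraries, only replicate 1 lay above the lowest positive library. Eif2ak2, the PKR kinase that halts translation on double-stranded RNA, was at 12.3, 4.06 and 19.0 FPKM in CD34-positive and 9.41, 1.5, 9.36 and 12.1 FPKM in CD34-negative libraries. Number 2 held the lowest value of each group, and the within-number differences ran from 0.35 to 1.02. Without CD34-negative replicate 2 the group difference of Eif2ak2 went from 0.52 to -0.03, in a fit that ignores the numbers. With the description number as a block and all libraries, its difference was 0.72 (SE 0.18; adjusted p = 0.0982 in limma). Adar, which edits double-stranded RNA, kept within a narrow band, 9.55 to 13.1 FPKM in CD34-positive and 8.50 to 12.1 FPKM in CD34-negative libraries, with a log2 difference of 0.26 (SE 0.27).

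**Figure D3:**
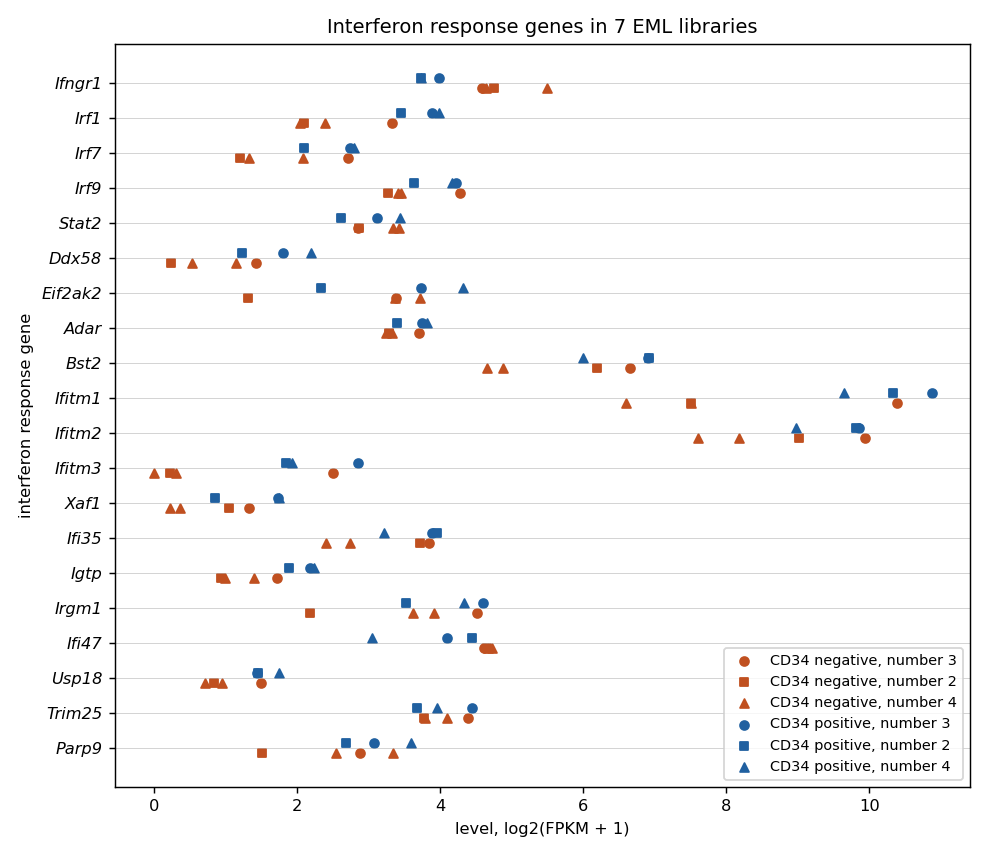
Level of the 20 tested members in each of the 7 libraries (horizontal axis, log2(FPKM + 1)), with CD34-negative libraries in orange, CD34-positive in blue and symbols for the description number. Irf1 and Igtp have all blue symbols to the right of all orange ones, Ifngr1 and Ifi47 have them to the left, and the orange circle of CD34-negative replicate 1 often lies among the blue symbols.

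On the log2(FPKM + 1) scale the largest difference in the set was in Ifitm1. It stood at 1871, 1285 and 797 FPKM in CD34-positive and 1338, 181, 95.8 and 181 FPKM in CD34-negative libraries. CD34-negative replicate 1 alone reached into the positive range. The log2 difference was 2.28 (SE 0.97; adjusted p = 0.861 in limma), and within numbers 2, 3, 4 and 4a it was 2.82, 0.48, 3.04 and 2.13.

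Ifitm3, the best known restriction factor of the family, lay far lower, at 6.25, 2.62 and 2.80 FPKM in CD34-positive and 4.67, 0.173, 0 and 0.242 FPKM in CD34-negative libraries. As in Ifitm1, CD34-negative replicate 1 lay beside the positive libraries and the other negative libraries were far lower. CD34-positive replicates 2 and 3 came in the opposite order to that of Ifitm1. Ifitm2 was at 924, 898 and 504 FPKM in CD34-positive and 981, 520, 290 and 195 FPKM in CD34-negative libraries, so the groups overlapped. The ratio of Ifitm1 to Ifitm2, from which a library's scaling factor cancels, was 1.43 to 2.02 in CD34-positive and 0.330 to 1.36 in CD34-negative libraries, a comparison chosen after the values were seen and given without a test. The Ifitm genes are related neighbours, and how reads shared between them were assigned is not given in the sources used here.

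Bst2 stood at 119, 120 and 63.1 FPKM in CD34-positive and 99.6, 71.9, 28.4 and 24.2 FPKM in CD34-negative libraries. Within each number the positive library was higher, but the groups overlapped, and number 4 libraries of both groups were low. Xaf1, an interferon-induced pro-apoptotic protein, averaged 1.83 ± 0.88 FPKM (SD, n = 3) with CD34 and 0.76 ± 0.644 FPKM (SD, n = 4) without it, and was lower in the positive library of number 2. Ifi35, a regulator of innate signalling, averaged 12.3 ± 3.47 FPKM (SD, n = 3) with CD34 and 8.90 ± 4.55 FPKM (SD, n = 4) without it, with differences of 0.05 to 0.80 within numbers.

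The GTPases split. Igtp, an immunity-related GTPase of intracellular membranes, was at 3.54, 2.72 and 3.72 FPKM in CD34-positive and 2.31, 0.911, 1.65 and 0.988 FPKM in CD34-negative libraries, and the groups did not overlap. Its log2 difference was 0.84 (SE 0.28; adjusted p = 0.686 in limma). Irgm1, a regulator of the same family, was at 23.4, 10.5 and 19.2 FPKM against 22.0, 3.52, 11.3 and 14.0 FPKM, with number 2 again lowest in each group.

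Ifi47, a further GTPase of this family, had the opposite sign. It held a nearly constant level in CD34-negative cells, at 23.5, 24.2, 24.5 and 25.5 FPKM, and was lower in every CD34-positive library, at 16.1, 20.8 and 7.32 FPKM. Its log2 difference was -0.80 (SE 0.36; adjusted p = 0.924 in limma), and within numbers 2, 3, 4 and 4a it was -0.20, -0.52, -1.61 and -1.67. In the GENCODE annotation Ifi47 shares exon sequence on the same strand with Olfr56, and Igtp with Irgm2. In all, 11 of the 20 tested members overlap an exon of another gene, 4 of them on the same strand, so their values are uncertain where reads could be split.

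Among the genes of ISG15 conjugation and ADP-ribosylation, Usp18, the protease that removes Isg15 and damps the receptor, averaged 1.95 ± 0.368 FPKM (SD, n = 3) with CD34 and 1.05 ± 0.532 FPKM (SD, n = 4) without it, with CD34-negative replicate 1, at 1.83 FPKM, inside the positive range. Parp9, which works with the ubiquitin ligase Dtx3l, averaged 7.98 ± 2.85 FPKM (SD, n = 3) with CD34 and 5.57 ± 3.06 FPKM (SD, n = 4) without it. Trim25, the ubiquitin ligase that activates RIG-I, differed by less than its spread, at 15.7 ± 4.65 FPKM (SD, n = 3) and 15.5 ± 3.44 FPKM (SD, n = 4).

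CD34-negative replicate 1 recurred through these values. It was the highest of the 4 negative libraries in 15 of the 20 members, against 31.1% of all tested genes, and the lowest in Ifngr1, Ifi47 and Stat2, against 5.57%. These counts were taken after the values were seen. Its Cd34 level of 91.8 FPKM was also the highest of the group, and the part of sorting purity in these values was not tested. Without both number 3 libraries and with no block, no gene passed. With the description number as a block and without both number 3 libraries, a fit added after the data were seen, 3 members passed as higher in CD34-positive cells, against 2.52% of all tested genes, and none as lower, against 0.875%. They were Ifitm1 (log2 difference 2.68, adjusted p = 0.0172 in limma), Ifitm3 (1.71, adjusted p = 0.0150) and Irf1 (1.59, adjusted p = 0.0253). That fit rests on 3 negative and 2 positive libraries, and it kept the genes that met the minimum over all 7. Among its libraries, Ifitm3 was above 1 FPKM only in the positive ones, at 2.62 and 2.80 FPKM against 0 to 0.242 FPKM. Number 3, the pair left out, had the smallest difference for 17 of the 20 members. Larger differences in this fit follow from that choice, and its calls are no separate support.

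**Figure D4:**
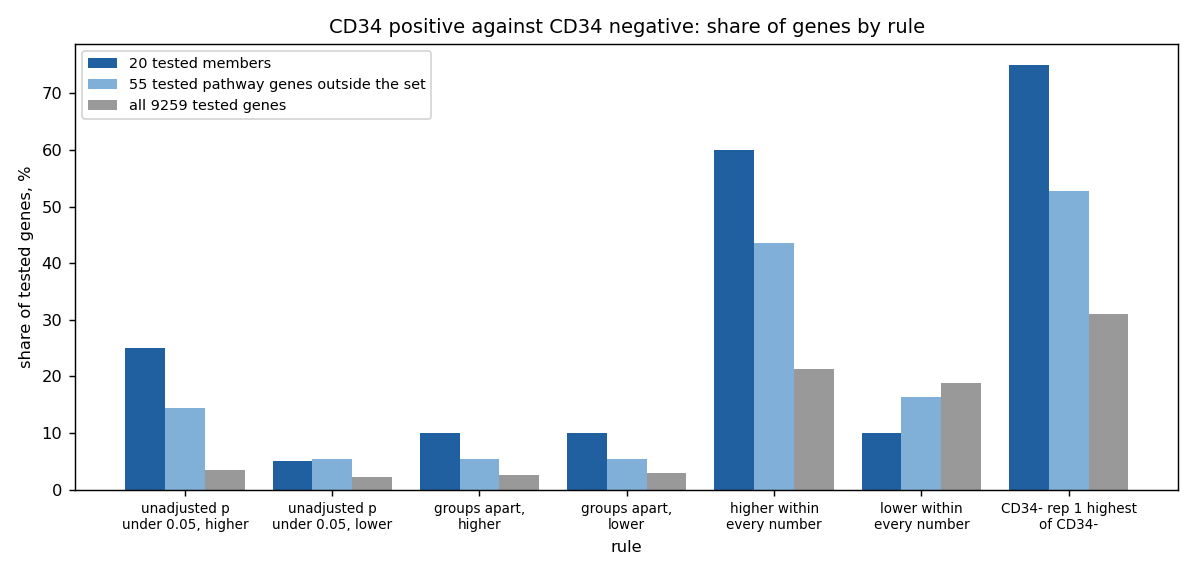
Share of genes (vertical axis, %) that met each rule in the comparison of CD34-positive with CD34-negative cells, for the 20 tested members, 55 tested pathway genes outside the set and all 9259 tested genes. Of the members, 60% were higher within every number and 75% had CD34-negative replicate 1 as the highest negative library, against 21.4% and 31.1% of all genes.

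Number 4 libraries were also compared with those of numbers 2 and 3, with the CD34 group in the model. Bst2 fell by 1.36 on the log2 scale (SE 0.23; adjusted p = 0.00474 in limma), Ifi35 fell by 1.01 (SE 0.21; adjusted p = 0.00963) and Ifitm2 fell by 1.29 (SE 0.33; adjusted p = 0.0204). With quantile normalization Ifi35 alone of these passed, Bst2 stood at -0.55 (adjusted p = 0.14 in limma) and Ifitm2 at 0.85 (adjusted p = 0.0956 in limma). These 3 of 20 members stand against 30.7% of all tested genes that were lower, and no member was higher, against 5.93%. The median of all genes was shifted by -0.29. With median-ratio scaling, 14.7% of genes were higher and 16.5% lower, and Stat2, Eif2ak2 and Parp9 passed as higher while Ifitm2 no longer passed. With quantile normalization the shares were 16.5% and 16.0%. The low share of ribosomal protein genes moves with the same libraries, and its part in these differences was not tested.

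Whether the CD34 difference itself changed with the number was tested with an interaction term. No gene passed in limma after adjustment, 0.00% in either direction. At an unadjusted p under 0.05, 1 member (Ifi47) had a lower difference in number 4, against 0.162% of all genes, and none had a higher one, against 0.0216%. By sign alone, the difference was larger in number 4 for 16 of the 20 members, against 43.3% of all tested genes. The median change was 0.53 for the members and -0.05 for all tested genes, and these values were not tested.

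Genes of the pathway outside the set were taken from a list of 108, of which 98 were in the table and 55 were tested. All 7 interferon genes in the table, among them Ifnb1, Ifng and Ifna4, were listed at 0 in every library. Between the CD34 groups none of the 55 passed in limma after adjustment. At an unadjusted p under 0.05, 8 were higher with CD34, against 3.38% of all tested genes, and 3 were lower, against 2.27%. Within equal numbers 24 (43.6%) were higher in all 4 comparisons, against 21.4% of all tested genes, and 9 (16.4%) were lower, against 18.9%. In the added fit with the block and without both number 3 libraries, Slfn2, Stat3, Sp110, Ccl5 and Socs3 passed as higher, against 2.52% of all genes, and Mavs as lower, against 0.875%. Among the libraries of that fit, Slfn2 and Ccl5 were above 1 FPKM only in the positive ones. In number 4 against numbers 2 and 3, 3 passed as higher, against 5.93%, and 10 as lower, against 30.7%. The median difference of the 55 between the CD34 groups was 0.20.

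The type I receptor chains were both higher in every positive library than in the negative library of equal number, as were 21.4% of all tested genes. Ifnar2 stood at 53.2, 41.2 and 60.4 FPKM in CD34-positive and 41.7, 22.5, 27.8 and 24.4 FPKM in CD34-negative libraries, and Ifnar1 at 15.3, 6.64 and 16.0 FPKM against 11.1, 3.20, 8.37 and 7.13 FPKM. The groups overlapped for both. Log2 differences were 0.83 (SE 0.33; adjusted p = 0.812 in limma) for Ifnar2 and 0.71 (SE 0.45) for Ifnar1. With the block the adjusted p in limma was 0.0931 for each. Ifngr2, the second chain of the type II receptor, averaged 9.65 ± 0.744 FPKM (SD, n = 3) with CD34 and 8.33 ± 1.43 FPKM (SD, n = 4) without it, and within numbers its differences ran from 0.01 to 0.40. The kinase Jak1 (62.1 and 44.5 FPKM) was higher in the positive library within every number, by 0.29 to 1.35, and with the block its difference was 0.67 (SE 0.21; adjusted p = 0.142 in limma). The kinase Tyk2 (12.8 and 13.9 FPKM) was lower within every number, from -0.005 in number 3 to -0.63 in number 4, with a block difference of -0.19 (SE 0.19).

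The 6 pathway genes with the smallest p were Slfn2, Ccl5, Stat3, Tmem173, Pml and Trim30a. Stat3, a factor downstream of many cytokine receptors, was at 86.0, 60.8 and 68.3 FPKM in CD34-positive and 61.2, 14.8, 20.4 and 19.4 FPKM in CD34-negative libraries. Tmem173, the STING adaptor of DNA sensing, averaged 47.4 ± 20.5 FPKM (SD, n = 3) with CD34 and 14.0 ± 12.9 FPKM (SD, n = 4) without it. Slfn2 (3.02 and 0.591 FPKM), the chemokine Ccl5 (2.71 and 0.638 FPKM) and Trim30a (1.94 and 0.410 FPKM) lay near the minimum. Pml, which organises nuclear bodies, was lower, at 15.0, 15.9 and 10.7 FPKM against 21.5, 38.7, 20.3 and 26.9 FPKM, and its groups did not overlap.

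Markers of other cell types that carry interferon genes were mostly at or near 0. Of 10 macrophage and dendritic markers found, only Cd68 passed the minimum, with Cd14 and C1qa listed at 0 in every library and a summed level of 3.68 to 12.9 FPKM in CD34-negative and 10.0 to 13.9 FPKM in CD34-positive libraries. Of 6 plasmacytoid dendritic markers, Siglech, which defines these cells, and Klk1 were listed at 0 throughout, and Bst2 (itself a member), Tcf4 and Cox6a2 passed the minimum. Their list summed to 27.7 to 106 FPKM in CD34-negative and 69.0 to 134 FPKM in CD34-positive libraries, most of it Bst2. Cox6a2 lay between 0.083 and 2.89 FPKM in the negative and between 2.44 and 12.2 FPKM in the positive group, which overlapped. No B cell marker passed the minimum, and Cd3e, Cd8a and Ncr1 of the T and NK list were listed at 0. The summed T and NK level of 507 to 2472 FPKM in CD34-negative and 538 to 872 FPKM in CD34-positive libraries was almost wholly Gzmb. Of the stromal and endothelial list, Col1a2, Col3a1 and Kdr were listed at 0, and its sum of 53.0 to 134 FPKM in CD34-negative and 97.2 to 160 FPKM in CD34-positive libraries came from Pdgfrb and Pecam1. The hepatocyte sum of 35.1 to 164 FPKM and 149 to 197 FPKM was nearly all Trf, with Alb and Ttr listed at 0. The part of other cell types in the members' values was not tested further. In bulk samples, fewer cells with a transcript and less of it per cell cannot be told apart.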

How the data were processed

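RNA of 7 libraries of EML cells (4 CD34-negative, 3 CD34-positive by their titles) was read from 1 deposited table of FPKM values, 1 gene symbol to a row. The authors used TopHat2, TopHat and Cuffdiff per the submitters' processing notes, and builds mm9 and mm10 are named without saying which was used. The annotation and any use of strand: not given in the sources used here. Each of the 7 value columns was matched to 1 library. Of 20464 rows, 322 rows of 105 repeated symbols were left out, none of them members. Genes at 1 FPKM or more in at least 3 libraries (9259) were tested on log2(FPKM + 1), which understates the change of low genes, with limma 3.58.1 in R 4.3.3 (mean-variance trend, two-sided, Benjamini-Hochberg over all tested genes, threshold 0.05). The fit was tested on simulated data. Each tested member reached 1 FPKM in at least 1 CD34-negative library. For Ifitm3 and Usp18 that was replicate 1 alone, at 4.67 and 1.83 FPKM. For Ddx58 it was replicates 1 and 3 alone, at 1.70 and 1.22 FPKM. For Igtp it was the same replicates, at 2.31 and 1.65 FPKM. All 3 positive libraries were above 1 FPKM in each of these genes, so those libraries would have met the minimum by themselves. The negative libraries alone would not have met it. An exact permutation of 3 against 4 libraries cannot go below p = 0.0571, so none was used.

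FPKM are not counts, and depth is unknown. In some pairs of libraries the low values share a ratio (for the replicate 1 pair, 129 of 306 genes low in both had a ratio near 0.572). What sets this ratio was not tested, and it gives no number of fragments.

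The members, gene lists and tests were chosen with earlier results of these data known. All 37 members are named, with Cd34, 5 receptor and kinase genes of the pathway list and its 6 genes of smallest p. A further gene that the naming rule covers is not reported here. The description numbers were checked from deviations from the group means, whose correlation was 0.70 for number 3, 0.92 for number 2, and 0.82 and 0.85 for number 4, and were taken to pair the libraries. For libraries of unlike number it ran from -0.86 to 0.37. Deviations sum to 0 within a group, so high values for some pairs force lower ones for others, and these ranges are not independent. Alternatives were another pseudocount (0.1), filter and scaling, blocks, and each library left out. Promoters were matched by symbol to RefSeq (GRCm38.p6), for 28 of 37 members. Exon overlaps come from GENCODE release M21.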

Additional observations from a re-analysis of the deposited data

Results flagged for a closer look

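For 2 tested members, 1 CD34-negative library stood well away from the rest of its group in log2(FPKM + 1). Chance alone does this in about 1 of 20 groups, and 21 genes were looked at. Ifitm3 was at 4.67 FPKM in CD34-negative replicate 1 against 0 to 0.242 FPKM in the other 3, a gap of 0.875 of the group's range. Eif2ak2 was at 1.5 FPKM in CD34-negative replicate 2 against 9.36 to 12.1 FPKM in the other 3, a gap of 0.858 of the range. In the CD34-positive library of number 2, Eif2ak2 was also lowest, at 4.06 FPKM.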

How the results depend on the processing

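Of 335 values of the 20 members under alternatives to the CD34 comparison, 316 kept their sign and stayed on the same side of the threshold, 3 newly passed and 16 changed sign. Those that changed sign belong to Stat2 and Trim25, whose differences were near 0, and to Eif2ak2, which turned only without CD34-negative replicate 2. Stat2 went from -0.06 to 0.028 with the replicate block by description number, 0.010 with that by title number, 0.024 when CD34-negative replicates 3 and 4 were averaged into 1, and between -0.25 and 0.16 when 1 library was left out. Trim25 went from 0.01 to -0.039 with quantile normalization, -0.092 with median-ratio scaling, -0.0091 with the replicate block by description number, -0.014 with that average, -0.074 without both number 3 libraries, -0.037 with that and the block, and between -0.20 and 0.19 when 1 library was left out. Eif2ak2 lay between -0.027 and 1.08 and Tyk2, outside the set, between -0.27 and 0.092 when 1 library was left out.

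Over all genes, between 0 and 7 were higher and between 0 and 3 lower when 1 library was left out, the highest counts without CD34-negative replicate 1, and 0 members passed either way. With the replicate block, the blocks by either number gave 0 genes, and the block without both number 3 libraries gave 233 higher, 81 lower and 3 members higher, with Cd34 at 4.38. Leaving out 1 library put Cd34 between 2.93 and 4.49. Members higher or lower within every number stayed at 12 and 2 with pseudocount 0.1 and both scalings.

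Number 4 against numbers 2 and 3 gave 549 genes higher and 2842 lower, 1529 and 1478 with quantile normalization, 1355 and 1524 with median-ratio scaling, and 123 to 932 and 1020 to 2820 when 1 library was left out. Members higher were 0, 2 with quantile normalization, 3 with median-ratio scaling and 0 to 2 when 1 library was left out. Members lower were 3, 1 with quantile normalization and 2 to 4 when 1 library was left out. With quantile normalization, Ifitm2 was at 0.85 and Ifitm1 at 0.45 in place of -1.52. Ifitm2 did not pass without CD34-negative replicate 4 (adjusted p = 0.0757) or CD34-positive replicate 3 (adjusted p = 0.0651). The interaction gave 3 genes higher, no member, without a filter on low values. Causes were not tested.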
